A study of Rattus norvegicus with 35 samples.

Results

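Liver microRNAs (miRNAs) were compared between rats given ketoconazole at the middle dose of the study, 30 mg/kg per day by mouth for 3 days, and rats given only the vehicle, 0.5% methylcellulose, for the same 3 days. The comparison was defined by the sample labels and covers 6 of the 35 libraries of the series, 3 treated and 3 control, and all 763 miRNA rows of the count table. All animals were male Sprague-Dawley rats aged 6 weeks, and the livers were collected 24 h after dosing ended. The drug, an antifungal of the azole class, blocks sterol synthesis in fungi, inhibits several mammalian cytochrome P450 enzymes and can cause liver injury. The study's title names marker miRNAs of that injury as its aim. The other doses, 10 mg/kg (low) and 100 mg/kg (high), and the other durations, 7 and 14 days, serve here only to place the middle dose on day 3. Nothing in the labels states that replicates of a group came from separate rats, so p-values measure the spread between these libraries, which may in part be technical.

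A miRNA is cut from a hairpin precursor whose 2 arms, named 5p and 3p, can each yield a mature strand of about 22 bases. One strand is usually loaded into an Argonaute protein and kept, and the other is mostly degraded. The loaded strand pairs with messenger RNAs mainly through its seed, bases 2 to 8 from the 5′ end, so miRNAs with the same seed share many predicted targets. Liver RNA is rich in miR-122 and the miR-192/194 family, which come largely from hepatocytes, and in miR-22, miR-148a, miR-21 and let-7.

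The sequences below carry the main findings and are shown as RefSeq annotates them on the GRCr8 assembly, 5′ to 3′, with the seed in capitals. Of the 328 miRNAs that could be tested, 292 were matched by name to such a sequence. The first set gives both arms of 4 hairpins whose arms moved unequally, and miR-128-3p, which had the second largest rise.
miR-22-5p: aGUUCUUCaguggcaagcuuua
miR-22-3p: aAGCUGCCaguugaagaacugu
miR-322-5p: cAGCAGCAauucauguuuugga
miR-322-3p: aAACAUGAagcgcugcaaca
miR-191a-5p: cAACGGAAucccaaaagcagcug
miR-191a-3p: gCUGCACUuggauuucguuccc
miR-28-5p: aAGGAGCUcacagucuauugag
miR-28-3p: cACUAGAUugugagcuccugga
miR-128-3p: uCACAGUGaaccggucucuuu

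The second set shares the seed AUUGCAC and is shown because its members went in opposite directions: the first 3 fell and the last 2 rose.
miR-25-3p: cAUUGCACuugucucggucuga
miR-32-5p: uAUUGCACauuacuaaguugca
miR-363-3p: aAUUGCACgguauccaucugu
miR-92a-3p: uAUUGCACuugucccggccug
miR-92b-3p: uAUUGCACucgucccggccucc

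The third set shares the seed AGCAGCA with miR-322-5p and is shown because its members moved down together with it.
miR-15b-5p: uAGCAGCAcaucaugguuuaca
miR-16-5p: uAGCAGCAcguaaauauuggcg

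The 6 libraries held between 3255069 and 4119950 miRNA counts. Of the 763 miRNAs, 208 had no count in any of the 6 libraries, 555 had at least 1 and 328 had enough counts over the series to be tested. The 435 rows that failed the count filter averaged at most 9.45 CPM over the 6 libraries (CPM, counts scaled to the same total in every library). Liver markers matched the tissue label: miR-122-5p averaged 32770 CPM over the 6 libraries, while the 7 striated muscle miRNAs together reached 15.1 to 42.4 CPM in controls and 22.2 to 30.8 CPM at the middle dose. Of these, miR-1-3p, miR-206-3p, miR-208a-3p and miR-208b-3p were at 0 in all 6 libraries and 3 were detected, led by miR-499-5p. A count of 0 allows up to 0.922 CPM in the shallowest of the 6 libraries, and such limits cover counting error only. On the first principal component of all 35 libraries, which carried 46.2% of the variance of log2 CPM, the 3 control libraries of day 3 scored -9.85 to -5.33 and the low dose libraries of day 3 scored -9.65 to -4.32. The middle dose libraries of day 3 stood apart at 4.70 to 5.59, beside the high dose libraries at 5.62 to 5.91. Dose alone did not order this component. The low dose libraries of day 7 scored 4.24 to 4.67, near the middle dose, and those of day 14 scored -8.26 to -5.46. The labels name no batch, so whatever separates these clusters cannot be told apart from the dose in the comparison of the middle dose with control.

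The liver miRNAs of the 2 groups differed widely on day 3. In edgeR's quasi-likelihood test, 125 of 328 miRNAs (38.1%) had a Benjamini-Hochberg adjusted p under 0.05, and of these 66 were higher (20.1%) and 59 lower (18%). The rises were larger than the falls: of the 45 miRNAs (13.7%) that changed at least 2-fold, 37 were higher (11.3%) and 8 lower (2.44%). The median log2 fold change over all 328 was -0.06. The split depended on the scaling, since library size alone in place of TMM factors gave 53 higher and 84 lower, with a median of -0.18. In 148 miRNAs (45.1%) the 3 treated libraries did not overlap the 3 controls, 75 above and 73 below. Together the 66 miRNAs that rose took 32.5 ± 2.63% of the counts in controls (SD, n = 3) and 43.8 ± 1.43% at the middle dose (SD, n = 3), while the 59 that fell went from 18.2 ± 0.848% to 12.5 ± 0.985%. Both sets were picked by their change in these same libraries, which fixed the direction of these shares. The shares only describe how much of the counts the called miRNAs held. Calls were more frequent among abundant miRNAs, 56.1% of the 57 with a mean of at least 1000 CPM and 18.3% of the 82 under 10 CPM. In whole-liver RNA, fewer cells of a type and less miRNA per cell cannot be told apart.

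**Figure D1:**
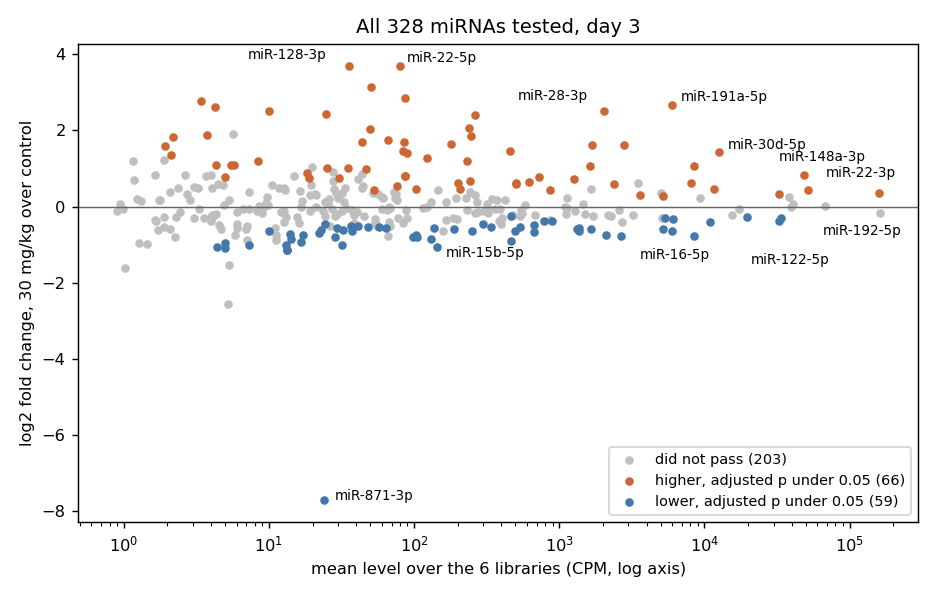
Change of each of the 328 tested miRNAs (log2 fold change, middle dose over control on day 3, vertical) against its mean level over the 6 libraries (CPM, log axis); orange points passed upward (66), blue downward (59) and grey did not pass (203). The rises reach 3.70 for miR-22-5p, while the changes that passed downward, except that of miR-871-3p, reach -1.14; some grey points lie lower.

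The largest rise was that of miR-22-5p, the minor arm of the miR-22 hairpin. It stood at 10.7, 9.99 and 13.6 CPM in the 3 control libraries and at 113, 180 and 152 CPM in the 3 treated ones, a log2 fold change of 3.70 ± 0.25 (SE; adjusted p = 3.34e-13). Every treated library lay far above every control, and the ratio of the group means was 13.0. The major arm, miR-22-3p, came next after miR-192-5p in mean level over the 6 libraries, though not in every library. It went from 142238, 130734 and 148818 CPM to 171164, 177709 and 193282 CPM. Its rise was 0.36 ± 0.10 (adjusted p = 0.00681), again with no overlap between the groups. The 2 arms therefore rose together but by unequal factors, a difference of 3.33 on the log2 scale. Without control replicate 2, miR-22-3p missed the threshold, at 0.28.

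miR-128-3p, best known from the brain, was scarce in control livers, at 4.12, 4.22 and 7.15 CPM. At the middle dose it stood at 56.7, 89.8 and 52.4 CPM, a rise of 3.68 ± 0.36 (adjusted p = 1.31e-09). miR-671 went from 10.2, 5.33 and 15.5 CPM to 81.9, 87.3 and 104 CPM, a rise of 3.14 ± 0.30 (adjusted p = 5.52e-10). For both, the lowest treated library lay far above the highest control.

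Among abundant miRNAs, miR-191a-5p had the largest rise. It comes from a hairpin that shares a transcript with miR-425, and it went from 1414, 1402 and 2060 CPM to 10906, 8233 and 11925 CPM, a rise of 2.67 ± 0.19 (adjusted p = 3.34e-13). miR-28-3p, from a hairpin in an intron of the Lpp gene, went from 561, 486 and 779 CPM to 3748, 3088 and 3597 CPM, a rise of 2.51 ± 0.19 (adjusted p = 3.46e-12). In both, control replicate 3 was the highest control and still far below the treated libraries. miR-186-5p (1.63 ± 0.19) and miR-148a-5p (1.61 ± 0.21) also rose, the first from 692 to 1060 CPM to 2439 to 2710 CPM and the second from 1162 to 1683 CPM to 3397 to 5217 CPM, without overlap.

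Both arms of miR-423, whose hairpin lies in an intron of Nsrp1, rose to a similar extent. miR-423-5p went from 85.4, 84.8 and 106 CPM to 422, 329 and 410 CPM (2.07 ± 0.21) and miR-423-3p from 77.4, 56.6 and 117 CPM to 441, 459 and 436 CPM (2.41 ± 0.25). The remaining leaders upward were miR-322-3p at 2.84 ± 0.20, miR-92b-3p at 2.52 ± 0.28, miR-222-3p at 2.43 ± 0.28, miR-434-3p at 2.03 ± 0.50 and miR-145-5p at 1.85 ± 0.24. miR-434-3p, an imprinted miRNA, was the least even of them: the lowest treated library, at 36.2 CPM, barely exceeded the highest control, at 35.1 CPM.

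**Figure D2:**
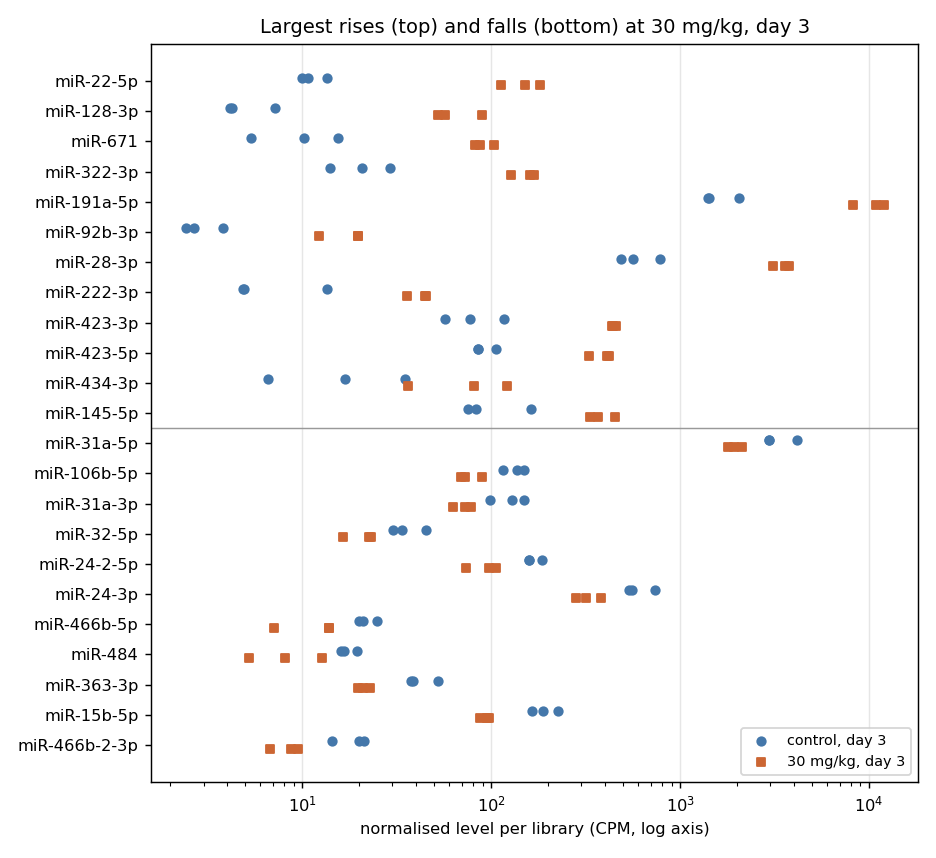
Level of the miRNAs with the largest rises (above the line) and falls (below it) in each library, on a log axis of CPM; circles are the 3 controls and squares the 3 middle dose libraries of day 3. No group overlaps in any row, which the naming rule required, and the gaps are wider for the rises than for the falls; miR-466b-4-3p, whose counts equal those of miR-466b-2-3p, is left out.

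The falls were smaller. miR-15b-5p, a member of the miR-15/16 family that restrains the cell cycle, stood at 188, 227 and 164 CPM in controls and at 97.4, 86.8 and 94.6 CPM at the middle dose, a fall of -1.05 ± 0.19 on the log2 scale (adjusted p = 4.01e-05). The treated libraries were close to each other and at roughly the same distance below the controls. miR-24-3p, from the miR-23/24/27 clusters, went from 553, 738 and 536 CPM to 281, 317 and 381 CPM (-0.90 ± 0.16, adjusted p = 3.77e-05). miR-466b-2-3p, whose counts equal those of miR-466b-4-3p in every library so that the pair is 1 measurement, went from 21.1, 20 and 14.3 CPM to 9.5, 8.76 and 6.76 CPM (-1.14 ± 0.22). Further falls in the naming rule's list came to -1.02 ± 0.26 for miR-363-3p, -1.0 ± 0.24 for miR-484 and -0.92 ± 0.34 for miR-466b-5p. miR-24-2-5p (-0.86 ± 0.18), miR-32-5p (-0.81 ± 0.21), miR-106b-5p (-0.80 ± 0.18) and both arms of miR-31a (3p -0.81 ± 0.20, 5p -0.78 ± 0.17) completed it. miR-466b-5p missed the threshold with no low-count filter, at -0.90 (adjusted p = 0.0682).

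One fall stood outside this range. miR-871-3p was at 0, 3.11 and 140 CPM in the controls and at 0, 0.274 and 0.338 CPM in the treated libraries. The test called it lower (-7.72 ± 1.89, adjusted p = 0.00363), but the value comes from control replicate 3 alone: the groups overlap, and without that library miR-871-3p no longer passed the count filter.

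Of 14 hepatocyte miRNAs, all tested, 2 rose and 4 fell, with a median of -0.23 against -0.06 for all miRNAs tested. That share is near the 38.1% called over all 328 and says nothing particular about hepatocyte miRNAs. Both arms of miR-148a, known to restrain the pregnane X receptor in human cells, were the 2 that rose. miR-148a-3p went from 36858, 34607 and 33092 CPM to 57722, 65141 and 61905 CPM, a rise of 0.82 ± 0.15 (adjusted p = 4.01e-05). The lowest treated library lay far above the highest control in one of the most abundant miRNAs of the liver. miR-122-5p, the most liver-specific miRNA and a blood marker of liver injury, stood at 39398, 38887 and 32723 CPM in controls and at 32507, 19424 and 33683 CPM at the middle dose. The fall of -0.37 ± 0.14 passed narrowly (adjusted p = 0.0414), and the groups overlap. It was -0.18 without middle dose replicate 2, and it missed the threshold under 8 of 14 alternative settings, also without control replicates 1 (-0.33) and 2 (-0.37). The minor arm miR-122-3p fell more clearly, by -0.76 ± 0.16 (adjusted p = 0.000418), from 2278 to 2895 CPM in controls to 1357 to 1791 CPM. Of the arms of miR-192, a miRNA that p53 can induce, miR-192-3p fell (-0.57 ± 0.16), while miR-192-5p, at 152121 to 183085 CPM in controls and 139173 to 172203 CPM at the middle dose, did not pass (-0.17 ± 0.10, adjusted p = 0.159), though it did without control replicate 3 (-0.28). miR-194-5p passed narrowly (-0.30 ± 0.12, adjusted p = 0.0472), a call lost under 8 of 14 alternative settings. miR-802-5p (-0.02 ± 0.26) and miR-101b-3p (-0.21 ± 0.14) did not pass. The number of the list that fell was 7 with library size alone, 1 when only the 2 groups were fitted and 2 without control replicate 1 or 2.

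Markers of other cell types showed no common direction. Over all 328 miRNAs tested, 38.1% were called, the share to set beside each cell type count here and in the next paragraph. The endothelial miRNA miR-126a fell in both arms, miR-126a-3p from 7889, 7415 and 6475 CPM to 3873, 5361 and 4688 CPM (-0.65 ± 0.16, adjusted p = 0.00194) and miR-126a-5p by -0.28 ± 0.10, a call lost without control replicate 3 (-0.29) or middle dose replicate 2 (-0.23). Their summed level was 28706 to 29356 CPM in controls and 21133 to 25148 CPM at the middle dose. Of 7 white blood cell miRNAs, miR-342-3p rose (0.99 ± 0.25), miR-150-5p, the lymphocyte miRNA, fell (-0.65 ± 0.19) and 5 did not pass, and their summed level overlapped between the groups, at 1772 to 3172 CPM in controls and 2223 to 3018 CPM at the middle dose. miR-150-5p was highest in control replicate 3, at 887 CPM against 428 and 517 CPM in the other controls, and the groups overlap. Without that library the fall was -0.31 and did not pass, and miR-142-5p then passed upward, at 0.74. None of the 4 red blood cell miRNAs passed: miR-451-5p (-0.29 ± 0.32), miR-144-3p (-0.64 ± 0.31), miR-144-5p (0.25 ± 0.31) and miR-486 (0.61 ± 0.33).

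Among 7 miRNAs of stellate and smooth muscle cells, miR-145-5p rose from 83.5, 75.1 and 162 CPM to 367, 334 and 453 CPM, while miR-214-3p fell (-0.54 ± 0.22, adjusted p = 0.0474), a call lost under 7 of 14 settings, among them leaving out control replicate 2 (-0.43) or any of middle dose replicates 1 (-0.56), 2 (-0.52) and 3 (-0.59). The abundant miR-143-3p, made from the same transcript as miR-145, did not pass (0.07 ± 0.11), and the list's summed level overlapped, at 36620 to 49985 CPM and 39150 to 48064 CPM. None of the 7 miR-200 family members, markers of bile duct epithelium, passed, and miR-141-3p (-0.77 ± 0.31, adjusted p = 0.0507) did so without control replicate 1 (-0.93) or middle dose replicate 1 (-0.93). The defining markers of these cell types were present in both groups at these levels, and the part that a shift in cell types plays in the other changes was not tested.

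**Figure D3:**
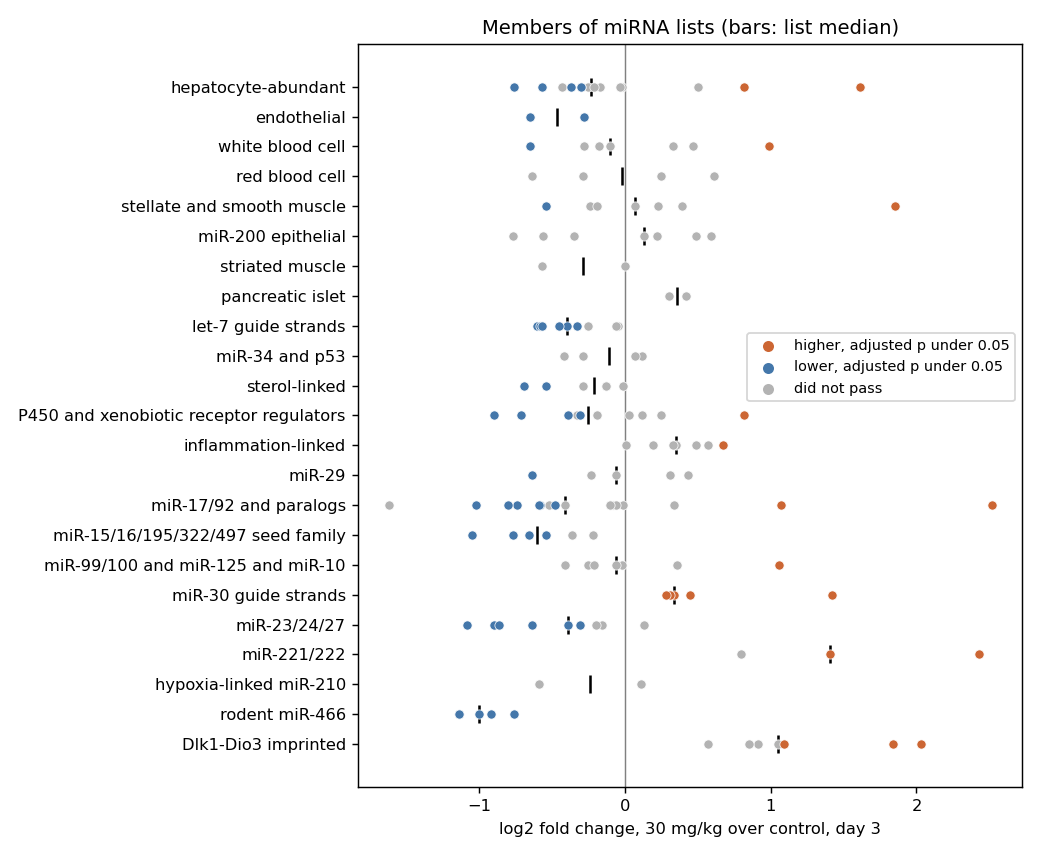
Log2 fold change (middle dose over control, day 3) of every tested member of 23 lists of miRNAs, 1 row per list with at least 2 tested members; orange passed upward, blue passed downward, grey did not pass, and the black bar is the list median. All 5 miR-30 guide strands lie to the right of 0 and all 5 miR-466 members to the left, while most cell type lists straddle 0.

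In several families the members that passed went one way, where 20.1% of all miRNAs tested were higher and 18% lower. All 5 miR-30 guide strands, miRNAs abundant in most epithelia, rose, with a list median of 0.34. miR-30d-5p led them, going from 6454, 5797 and 8171 CPM to 16458, 18875 and 19358 CPM (1.42 ± 0.16, adjusted p = 1.57e-08). The others rose less, miR-30e-5p by 0.45 ± 0.12, miR-30a-5p by 0.34 ± 0.09, miR-30b-5p by 0.31 ± 0.11 and miR-30c-5p by 0.28 ± 0.11, and the call of miR-30c-5p was lost under 10 of 14 alternative settings. The number of guides that passed was 3 with library size alone, with no low-count filter and without control replicate 2 or middle dose replicate 3, and 2 when only the 2 groups were fitted. Of the 6 opposite strands tested, miR-30a-3p, miR-30d-3p and miR-30e-3p rose, by 0.47 to 0.61, and miR-30b-3p (0.36), miR-30c-1-3p (0.30) and miR-30c-2-3p (0.16) did not pass. The 3 rises were calls that were lost without control replicate 2 (0.32 to 0.46) or middle dose replicate 3 (0.34 to 0.43). miR-26a-5p, another abundant strand with a tumour-restraining role, rose from 43088, 37257 and 52206 CPM to 57332, 53404 and 67913 CPM (0.43 ± 0.12, adjusted p = 0.00491), and miR-26b-5p, with the same seed, by 0.63 ± 0.14. The call of miR-26a-5p was lost without control replicate 2 (0.29) or middle dose replicate 3 (0.34).

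The let-7 guide strands, which restrain growth and share the seed GAGGUAG, went the other way: 6 of 9 fell, 0 rose and the median was -0.40. Among all miRNAs tested, 18% were lower. let-7b-5p (-0.60 ± 0.16), let-7c-5p (-0.58 ± 0.16) and let-7d-5p (-0.57 ± 0.12) fell most. let-7d-5p went from 1582, 1598 and 1748 CPM to 1095, 1090 and 1138 CPM, without overlap. let-7f-5p, the most abundant guide of the family at 17563 to 17934 CPM in controls, did not pass (-0.06 ± 0.11), nor did let-7e-5p (-0.05 ± 0.14). The opposite strands had no common direction. Some rose, let-7e-3p by 2.61 ± 0.36, let-7f-2-3p by 1.01 ± 0.26, and let-7a-1-3p and let-7c-2-3p by 0.81 ± 0.20 each. The last 2 share 1 mature sequence and nearly identical counts, so they are 1 measurement. let-7g-3p fell (-0.65 ± 0.20). The strands let-7b-3p (0.37), let-7d-3p (0.07), let-7f-1-3p (-0.19), let-7i-3p (-0.52) and miR-98-3p (-0.07) did not pass.

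The miR-15/16 seed family was lower in 4 of 6 tested members, with a median of -0.60. Of all miRNAs tested, 18% were lower, the share to set beside each family count in this paragraph. Besides miR-15b-5p, the fall in miR-16-5p was the one with most counts behind it, from 11173, 12183 and 8885 CPM to 6775, 5778 and 6412 CPM (-0.77 ± 0.15, adjusted p = 0.000253). miR-15a-5p fell by -0.66 ± 0.15 and miR-322-5p by -0.54 ± 0.14, and miR-497-5p (-0.36 ± 0.16) did not pass, though it did without control replicate 2 (-0.46). In the miR-23/24/27 group, 6 of 9 fell and 0 rose (median -0.39), with miR-23b-3p at -0.64 ± 0.16, miR-27a-3p at -0.39 ± 0.11 and the abundant miR-27b-3p at -0.31 ± 0.11. The count was 3 when only the 2 groups were fitted, and miR-27b-3p missed the threshold without control replicate 2 (-0.26) or middle dose replicate 1 (-0.31) or 2 (-0.25). All 5 tested miR-466 rows, products of a repeated hairpin cluster with near-identical copies, fell, with a median of -1.0. They are 4 measurements, since miR-466b-2-3p has the same counts as miR-466b-4-3p, and their split between copies is uncertain. Without control replicate 1, miR-466b-5p and miR-466c-3p, at -0.82 each, missed the threshold. Both arms of miR-33, which lies in the gene of the sterol regulator SREBP2, fell, miR-33-5p from 63.3, 74.4 and 66.0 CPM to 43.7, 50.4 and 46.0 CPM (-0.54 ± 0.18) and miR-33-3p by -0.69 ± 0.21. The other 4 sterol-linked miRNAs tested, miR-96-5p, miR-182, miR-183-5p and miR-185-5p, did not pass.

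The miR-17/92 group and its paralogs, which promote proliferation, had calls in both directions. Of 17 tested, 2 rose and 6 fell, with a median of -0.41, where 38.1% of all miRNAs tested were called. miR-17-5p (-0.58 ± 0.15), miR-18a-5p (-0.74 ± 0.24), miR-93-5p (-0.48 ± 0.13) and miR-106b-5p fell. The call of miR-18a-5p was lost without control replicate 2 (-0.61) or middle dose replicate 3 (-0.57). Calls in both directions also occurred within the seed AUUGCAC shown above. miR-25-3p went from 2028, 2246 and 1726 CPM to 1378, 1298 and 1323 CPM (-0.59 ± 0.15), and miR-363-3p from 38.6, 52.4 and 37.4 CPM to 22.8, 19.7 and 21.0 CPM. miR-92a-3p, the most abundant strand with this seed, went from 5868, 4389 and 6139 CPM to 9591, 13294 and 11537 CPM (1.07 ± 0.17, adjusted p = 9e-06), and miR-92b-3p from 2.43, 2.67 and 3.81 CPM to 19.8, 12.3 and 19.6 CPM. Of 32 seeds with at least 2 tested miRNAs, 14 had at least 2 that passed: in 7 all of these were higher, in 6 all were lower, and AUUGCAC was the 1 seed with calls in both directions. One of the 7, UAUACAA, rests on let-7a-1-3p and let-7c-2-3p, which are 1 measurement.

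Some further miRNAs that share a seed were compared, the miR-193, miR-365, miR-125a and miR-351 strands among them chosen after their values were seen. miR-221-3p (1.41 ± 0.29) and miR-222-3p, which share the seed GCUACAU and restrain the cell cycle inhibitor p27, both rose, and miR-221-5p (0.80 ± 0.49) did not pass. miR-193a-3p and miR-193b-3p, with 1 seed, rose by 0.72 ± 0.21 and 1.70 ± 0.26, and miR-365-3p, a cluster partner, by 1.70 ± 0.28. miR-193a-3p missed the threshold without control replicate 1 (0.60) or 2 (0.54) or middle dose replicate 3 (0.58). miR-125a-5p rose by 1.06 ± 0.21 and miR-351-5p, with the same seed, by 1.46 ± 0.20, while miR-125b-5p did not pass (-0.21 ± 0.17). In the list of the miR-99/100, miR-125 and miR-10 families, 1 of 7 rose, 0 fell and the median was -0.06, that of all miRNAs tested. Over all miRNAs tested, 20.1% were higher. Of 7 tested members of a list of Dlk1-Dio3 imprinted miRNAs, which are far more abundant in fetal than adult liver, 3 rose, with a median of 1.05. miR-300-3p (1.84 ± 0.69) and miR-541-5p (1.09 ± 0.42) among them averaged 2.19 and 5.78 CPM and missed the threshold without control replicate 1 (1.41 and 1.03) or middle dose replicate 1 (1.60 and 0.86), which left 1 call in the list. Without control replicate 2, miR-136-3p (1.93) and miR-411-5p (1.48) passed. The list does not cover every tested miRNA of this locus. miR-409a-5p, outside the list but in a cluster with miR-300-3p, miR-411-5p and miR-541-5p, also rose (2.77), at a mean of 3.42 CPM.

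Lists linked to drug response and injury were counted in the same way. Of 10 miRNAs linked to cytochrome P450 enzymes or xenobiotic receptors, miR-148a-3p rose, and miR-24-3p, miR-27a-3p, miR-27b-3p and miR-130b-3p (-0.71 ± 0.24) fell, with a median of -0.25. These are 5 calls among 10, against 38.1% over all miRNAs tested. The number that fell was 1 when only the 2 groups were fitted and 2 without control replicate 2, where miR-130b-3p was -0.58. miR-24-3p, miR-27a-3p and miR-27b-3p also belong to the miR-23/24/27 group. Of 7 inflammation-linked miRNAs tested, miR-146a-5p rose (0.67 ± 0.21), a call lost with library size alone (0.54) and without control replicate 2 (0.53) or middle dose replicate 1 (0.50). miR-21-5p stood at 79610, 70841 and 51610 CPM in controls and at 64147, 62236 and 76625 CPM at the middle dose, with no difference past the threshold (0.01 ± 0.18, adjusted p = 0.983). None of the 4 tested members of the miR-34 and p53 list passed, and miR-34a-5p, a direct p53 target, stood at 18.4, 29.3 and 22.4 CPM in controls and 27.4, 35.9 and 12.5 CPM at the middle dose (0.12 ± 0.31, adjusted p = 0.783). miR-331-3p stood at 39.3, 42.2 and 27.6 CPM against 37.4, 76.4 and 43.9 CPM (0.53 ± 0.27, adjusted p = 0.122). Of the 8 most abundant miRNAs, miR-22-3p, miR-148a-3p and miR-26a-5p rose, and miR-192-5p, miR-21-5p, miR-143-3p, miR-10a-5p (-0.02 ± 0.12) and miR-378a-3p (0.25 ± 0.12) did not pass.

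The 2 arms of a hairpin come from 1 precursor, so their changes can be set side by side. Both arms were tested in 96 hairpins and both passed in 19, in 8 both higher, in 7 both lower and in 4 in opposite directions. Taken singly, the more abundant arm was higher in 20 and lower in 28 of the 96. The less abundant arm was higher in 17 and lower in 12. Over all miRNAs tested, 38.1% were called. Whether 4 opposite hairpins differ from the number that unrelated arms would give was not tested. The widest gap was in miR-322, the rodent counterpart of miR-424. miR-322-5p, the major arm, went from 708, 586 and 615 CPM to 436, 451 and 425 CPM, while miR-322-3p went from 20.6, 14.0 and 29.1 CPM to 127, 160 and 168 CPM. The ratio of the 5p to the 3p arm was 30.0 in controls and 2.88 at the middle dose, from group means in CPM.

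In miR-191a the major 5p arm rose, while miR-191a-3p went from 30.8, 28.6 and 24.5 CPM to 17.1, 18.3 and 26 CPM (-0.46 ± 0.18, adjusted p = 0.0425). The groups overlap, and the call of miR-191a-3p was lost under 7 of 14 alternative settings, among them leaving out control replicate 1 (-0.38) or 2 (-0.48) or middle dose replicate 1 (-0.37) or 2 (-0.41). From group means in CPM, the ratio of 5p to 3p was 58.0 in controls and 505 at the middle dose. Both arms of miR-425, from the same cluster, fell, miR-425-5p by -0.64 ± 0.13 and miR-425-3p by -0.84 ± 0.23. miR-872 (5p -0.26 ± 0.10, 3p 1.19 ± 0.19) and miR-345 (5p -0.51 ± 0.19, 3p 0.89 ± 0.26) were the other opposite hairpins. The count of opposite hairpins dropped to 1 with no low-count filter, as miR-191a-3p, miR-345-5p and miR-872-5p then missed the threshold, at -0.44, -0.49 and -0.24. It was also 1 without control replicate 1 or middle dose replicate 2, and 2 without control replicate 2. miR-425-3p, which is not part of that count, also missed the threshold without control replicate 2, at -0.50.

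In miR-28 and let-7e the 3p arm passed and the 5p arm did not. miR-28-5p stood at 759, 726 and 724 CPM in controls and 675, 592 and 611 CPM at the middle dose (-0.23 ± 0.11, adjusted p = 0.0949), without overlap. It passed downward with library size alone (-0.35) and without middle dose replicate 1 (-0.31). The ratio of miR-28-5p to miR-28-3p was 1.21 in controls and 0.180 at the middle dose. let-7e-3p, at 1.21, 0.666 and 1.67 CPM in controls, stood at 6.24, 7.94 and 7.77 CPM at the middle dose. Over all tested strands named 3p, 40 of 160 rose and 24 fell, and over those named 5p, 24 of 146 rose and 33 fell, beside 20.1% higher and 18% lower over all 328, so that the share called in either direction was near 38.1% for both.

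**Figure D4:**
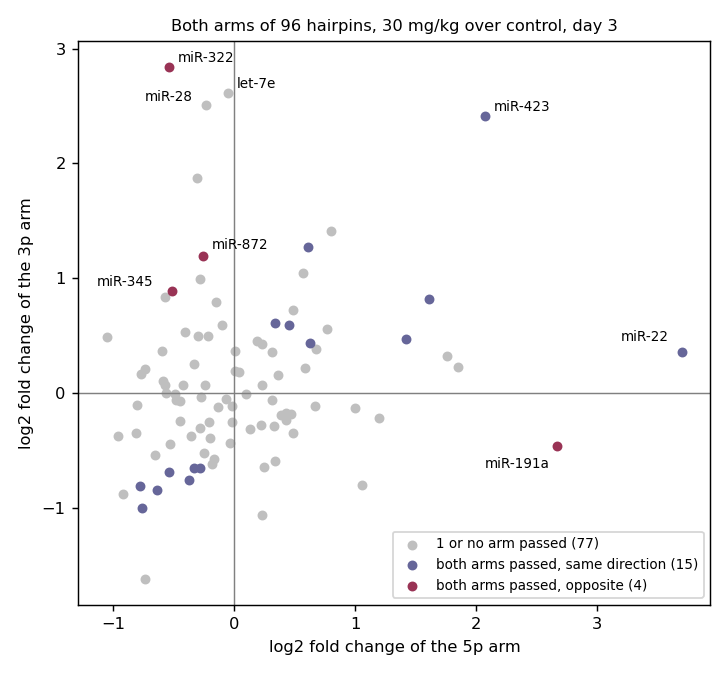
Log2 fold change of the 3p arm against that of the 5p arm (middle dose over control, day 3) for the 96 hairpins with both arms tested; dark red marks the 4 hairpins whose arms passed in opposite directions, violet the 15 whose arms passed in the same direction and grey the rest. miR-322 lies far up on the left, miR-191a far right below 0, and miR-22 far right just above 0.

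Neighbouring hairpins were also set side by side, where 38.1% of all miRNAs tested were called. In the cluster with miR-322 and miR-351, defined by hairpins within 10000 bases of each other on the GRCr8 assembly, 3 of 9 tested strands rose and 1 fell, over a range of -0.54 to 2.84. In the miR-191/425 cluster 1 of 4 rose and 3 fell. In the cluster of miR-99b, let-7e and miR-125a, 2 of 6 rose, from -0.80 to 2.61, and miR-99b-5p did not pass (0.36 ± 0.17). Base composition did not separate the calls: the median GC content was 47.8% in the strands that rose, 45.5% in those that fell and 47.7% in the rest. Across miRNAs, Pearson's r of the log2 fold change with GC content was 0.08 and with length 0.05, a description over 292 strands that share the same 6 libraries and are not independent.

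Against the low dose on day 3, which shares the middle dose libraries with the comparison above, the middle dose differed in 100 miRNAs (30.5%), 54 higher (16.5%) and 46 lower (14%). The 4 largest rises over the low dose, 3.30 ± 0.25 for miR-22-5p, 2.88 ± 0.34 for miR-128-3p, 2.71 ± 0.20 for miR-322-3p and 2.62 ± 0.19 for miR-191a-5p, were also among the leaders against control. At the low dose miR-22-5p stood at 11.8, 18.6 and 14.7 CPM and miR-191a-5p at 1206, 2112 and 1745 CPM, within or near the range of the controls. The largest falls under the naming rule were miR-466b-5p (-1.06 ± 0.34), miR-15b-5p (-0.94 ± 0.19), miR-141-3p (-0.93 ± 0.31) and miR-466b-2-3p (-0.90 ± 0.22). The count was 60 when only the 2 groups were fitted and 61 without low dose replicate 1, where miR-466b-5p (-0.85) and miR-141-3p (-0.58) missed the threshold, and with library size alone it split into 45 higher and 74 lower.

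Between the high and the middle dose on day 3 the differences were fewer, 23 miRNAs (7.01%), 13 higher (3.96%) and 10 lower (3.05%) at the high dose. miR-331-3p was higher at the high dose by 1.36 ± 0.27 (adjusted p = 0.00646), at 124, 128 and 154 CPM, above all 3 middle dose libraries. miR-34a-5p was higher by 1.08 ± 0.30 (adjusted p = 0.0267), at 72.5, 35.6 and 53.3 CPM, which overlaps the middle dose. miR-582-3p (1.62 ± 0.47) and miR-15b-3p (0.83 ± 0.25) were also higher. miR-342-3p (-0.92 ± 0.25), miR-155-5p (-0.91 ± 0.27), miR-125b-5p (-0.74 ± 0.17) and miR-21-5p (-0.68 ± 0.18) were lower. For miR-21-5p the high dose libraries stood at 35628, 52517 and 38936 CPM, all below the middle dose. Among the strong risers against control, the 3 looked at here did not differ past the threshold between these doses, which does not show that they were equal. They were miR-22-5p at 0.51 ± 0.22 (adjusted p = 0.168), miR-191a-5p at -0.25 ± 0.17 and miR-28-3p at -0.09 ± 0.18. The 23 calls between these doses were fragile: 0 miRNAs passed without middle dose replicate 1 or without replicate 3, and 43 passed without replicate 2. Without high dose replicates 1, 2 and 3, the counts were 3, 14 and 2, and 2 passed when only day 3 libraries were fitted. DESeq2 gave 31.

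**Figure D5:**
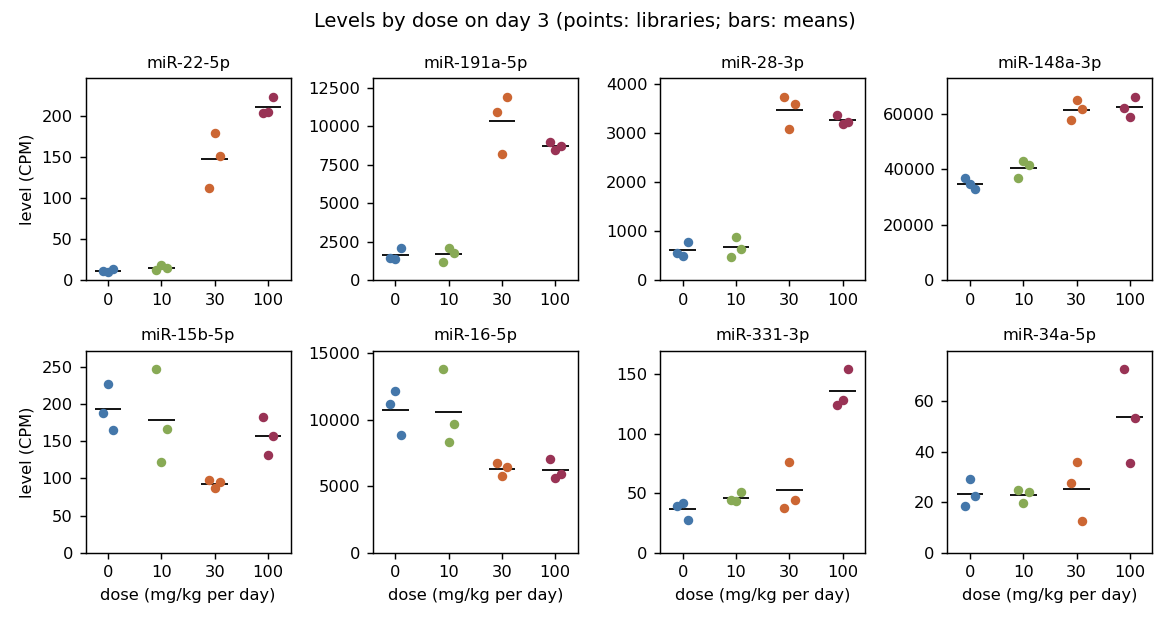
Level (CPM) of 8 miRNAs in each day 3 library by dose (0, 10, 30 and 100 mg/kg per day), 3 libraries per dose, with bars at the means. miR-22-5p, miR-191a-5p, miR-28-3p and miR-148a-3p are higher at 30 mg/kg than at 0 and 10 mg/kg, miR-15b-5p and miR-16-5p lower, and miR-331-3p is highest at 100 mg/kg.

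The effect of the middle dose on day 3 was also set against its effect on days 7 and 14, each relative to the control of its own day. By a test of the difference, 1 miRNA (0.305%) had another effect on day 7, miR-182, a sterol-linked miRNA of the miR-183/96/182 cluster. On day 3 miR-182 stood at 1312, 1641 and 1084 CPM in controls and 1166, 886 and 1635 CPM at the middle dose, and on day 7 at 644, 697 and 623 CPM against 1909, 1376 and 1741 CPM. The effect was larger on day 7 by 1.49 ± 0.30 (adjusted p = 0.00743), and this call was lost without control day 3 replicate 2 (1.34, adjusted p = 0.0559). At an unadjusted p under 0.05 the day 7 effect differed for 48 miRNAs, DESeq2 called 2, and 37 passed without control day 7 replicate 1. Between days 14 and 3, edgeR and DESeq2 each called 0 miRNAs (0%), and 18 had an unadjusted p under 0.05. The smallest p values were those of miR-182 (1.24 ± 0.32, adjusted p = 0.162), miR-421-3p (-0.66 ± 0.24) and miR-19a-3p (0.80 ± 0.30). miR-22-5p, at 121 to 224 CPM on day 7 and 161 to 230 CPM on day 14 at the middle dose, had effects that differed from day 3 by 0.61 ± 0.35 and -0.20 ± 0.36, neither past the threshold.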

How the data were processed

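The authors deposited 1 table of raw read counts per mature rat miRNA, not normalized. Small RNA libraries were made with TruSeq kits from total liver RNA, per the labels' protocols, and the genome build was rn6, per the submitters' processing notes. How reads were aligned, counted and, where they match several miRNAs, assigned is not given in the sources used here. All 37 count columns were assigned by name to the 35 samples. Repeat columns (2 each) of replicates 2 and 3 of the middle dose on day 14 were summed. Replicate pairs differed beyond counting noise (chi-square per degree of freedom of 34.8 or more), so none was taken as a duplicate.

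Counts of all 35 libraries entered 1 model of group means (edgeR 4.0.16 under R 4.3.3; 23 residual degrees of freedom) after filterByExpr (minimum count 10, minimum total 15) and TMM scaling, tested by the robust quasi-likelihood F statistic. Benjamini-Hochberg adjustment ran over the 328 miRNAs tested, with a threshold of 0.05. Standard errors equal the size of the log2 fold change over the root of its F value. CPM uses TMM-scaled library sizes. Sharing 1 spread estimate over 12 groups assumes that they vary alike. Alternatives were other size factors, other filters, DESeq2 1.42.0, a replicate block, fewer libraries and leaving out each library. On simulated counts for the day 3 comparison, the fit recovered 54% of the 1.5-fold and 74.5% of the 2-fold changes, and 0 of 128 unchanged miRNAs were called.

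Named miRNAs are the 12 largest changes each way that passed, averaged at least 10 CPM and did not overlap, and the 8 most abundant. To these come 5 reported whatever their values (miR-21-5p, miR-331-3p, miR-122-5p, miR-34a-5p and miR-192-5p) and up to 4 members of each of 24 lists. Up to 6 hairpins whose arms both passed in opposite directions were named, and 4 qualified. Other comparisons gave 4 each way, or the 3 smallest p values where none passed. Other named miRNAs, among them the additional strands of the let-7, miR-30, miR-193 and miR-425 hairpins, miR-28-5p and miR-871-3p, were chosen after their values were seen. Comparison, members and lists were chosen with earlier results of these data known. Figures were drawn with matplotlib 3.10.9.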

Additional observations from a re-analysis of the deposited data

Results flagged for a closer look

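miR-182 was the 1 miRNA whose response to the middle dose differed between days by a test of that difference. The day 7 effect exceeded the day 3 effect by 1.49 ± 0.30 on the log2 scale (edgeR's quasi-likelihood test, adjusted p = 0.00743). The control level itself differed between the days, at a mean of 1346 ± 280 CPM (SD, n = 3) on day 3 and 655 ± 37.7 CPM (SD, n = 3) on day 7, while the middle dose stood at 1229 ± 378 CPM and 1675 ± 272 CPM.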

How the results depend on the processing

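The naming rule picked 24 miRNAs by size of change among those called, with a mean of at least 10 CPM and no overlap. Of these 24, 23 kept their direction and passed under all 14 alternatives, the exception being miR-466b-5p. The alternatives reuse the libraries in which these miRNAs were picked for separation. The count therefore cannot show how stable large changes are in general, and it includes a duplicated miR-466b row. Calls for middle dose against control ranged from 88 (only the groups compared; 54 higher and 34 lower) to 137, and from 96 to 122 with 1 library left out, and 75 of the 125 passed in every such fit. High against middle dose gave 5 with no low-count filter, 2 with only day 3 libraries, 11 with only the groups compared and 0 to 43 with 1 library left out. Middle against low dose gave 60 with only the groups compared and 61 to 107 with 1 library left out, and with no low-count filter 56 higher and 16 lower. Day 7 minus day 3 gave 2 by DESeq2 and 0 to 37 with 1 library left out, and day 14 minus day 3 gave 0 to 1. Hairpins with opposite arms numbered 1 with no low-count filter and 1 with only the groups compared, and 1 to 5 with 1 library left out. The cause of these moves was not tested.

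Replicate numbers showed no sign of pairing the samples. Deviations of same-numbered libraries correlated at -0.21, 0.21 and 0.05, and those of differently numbered libraries at -0.33 to 0.26. With 3 libraries per group these values cannot exclude a pairing. With the replicate block 124 miRNAs passed against 125 without it, for high against middle dose 20 against 23, and for middle against low dose 93 against 100.

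Uncalled miRNAs near 0 changed sign. With library size alone this held for miR-143-3p (-0.06), miR-21-5p (-0.12), miR-210-3p (-0.00) and miR-34c-3p (-0.05). miR-21-5p was -0.00 under the stricter filter and -0.04 with only the days compared. miR-19a-3p was 0.00 with DESeq2 size factors, 0.01 with no filter and 0.01 by DESeq2, and miR-499-5p was 0.01, 0.01 and 0.02, and 0.01 with the replicate block. With 1 library left out, values ran miR-10a-5p from -0.18 to 0.04, miR-133a-3p from -1.01 to 0.70, miR-143-3p from -0.03 to 0.21, miR-182 from -0.38 to 0.03, miR-183-5p from -0.72 to 0.02, miR-19a-3p from -0.26 to 0.12, miR-21-5p from -0.18 to 0.14, miR-210-3p from -0.03 to 0.20, miR-223-3p from -0.29 to 0.01, miR-29c-3p from -0.28 to 0.10, miR-34a-5p from -0.23 to 0.45, miR-34b-5p from -0.99 to 0.02, miR-34c-3p from -0.52 to 1.86, miR-429 from -0.26 to 0.32, miR-451-5p from -0.50 to 0.10, miR-499-5p from -0.30 to 0.15, miR-802-5p from -0.18 to 0.26 and miR-96-5p from -0.52 to 0.09.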
